A study of Mus musculus with 10 samples.

Results

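Interferon response genes are the genes that cells switch on when interferon binds its receptors. The set examined here holds 37 genes known as interferon targets in mice, of which 23 are classed as targets of type I interferon and 14 as targets of interferon-gamma. Each gene was represented by the probe set annotated to its symbol with the highest mean signal over the 10 arrays. By that rule 35 of the 37 genes had a probe set of their own, out of 18193 genes with 1 on the array: 21 type I and all 14 interferon-gamma members. Isg15 and Ifi44 were not matched to a probe set and were not analysed here. Of the 35, 33 passed a filter on low signal and entered the tests (19 type I and 14 interferon-gamma), among 11021 genes tested, whereas Mx1 and Mx2 did not pass.

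The arrays profiled liver RNA from 129/B6 mice, either wild-type or with Gnmt, the main hepatic glycine N-methyltransferase, knocked out. At 11 weeks there were 4 arrays, a female and a male pool for each genotype, each pool an equal mix of total RNA from 3 mice. The other 6 arrays came from aged Gnmt -/- mice: dysplasia nodules and adjacent liver of a female at 21 months, a hepatocellular carcinoma (HCC) of a male at 18 months with its adjacent liver, and likewise an HCC of a female at 14 months with the liver beside it. Lesion and adjacent liver were taken as 1 mouse because the labels give them the same sex and age. No aged wild-type liver is among these samples, so age, knockout and disease are not separated in the aged arrays.

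Type I interferons signal through a receptor of Ifnar1 and Ifnar2 to a complex holding Stat2 and Irf9 that binds the interferon-stimulated response element (ISRE) and induces antiviral genes such as the Ifit, Oas and Mx families. Interferon-gamma, made mainly by T and natural killer cells, signals through Ifngr1 and Ifngr2, acts at the gamma-activated site (GAS) and induces guanylate-binding proteins, immunity-related GTPases, chemokines and the antigen-processing machinery. The classes overlap, since many genes answer to both interferons. In liver, hepatocytes, Kupffer cells, endothelial cells and infiltrating leukocytes can all express these genes.

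The binding elements can be read directly in the promoters of several members, and the following stretches are shown because they carry the letters of the elements by which the classes are known. The sequences come from RefSeq (GRCm38.p6, the C57BL/6J reference, not the 129/B6 alleles of these mice) and run 5′ to 3′ on the gene's strand, upstream of the start site. Capitals mark a match to the ISRE core GAAANNGAAA or, for Irf1 and Psmb8, to the GAS TTCNNNGAA, on either strand.
Ifit1 (chr19:34640765-34640833, plus strand): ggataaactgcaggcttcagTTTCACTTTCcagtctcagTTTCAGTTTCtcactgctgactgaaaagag
Ifit3 (chr19:34583353-34583436, plus strand): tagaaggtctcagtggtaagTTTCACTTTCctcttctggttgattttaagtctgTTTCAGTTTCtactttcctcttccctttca
Rsad2 (chr12:26456543-26456592, minus strand): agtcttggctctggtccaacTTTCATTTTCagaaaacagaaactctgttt
Gbp2 (chr3:142620584-142620633, plus strand): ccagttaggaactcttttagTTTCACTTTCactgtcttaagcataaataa
Irgm1 (chr11:48871421-48871470, minus strand): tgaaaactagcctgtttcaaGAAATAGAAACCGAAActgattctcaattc
Irf1 (chr11:53769904-53769952, plus strand): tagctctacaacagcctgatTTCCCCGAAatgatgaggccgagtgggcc
Psmb8 (chr17:34198078-34198126, plus strand): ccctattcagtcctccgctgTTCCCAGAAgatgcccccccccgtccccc

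Ifit1 and Ifit3 each carried 2 matches to the ISRE core, and Irgm1 carried 2 that overlap. The Ifit1 matches begin 104 bases before the start and end 75 bases short of it. Both the type I gene Rsad2 and the interferon-gamma gene Gbp2 carried 1 match. Of the 37 members, 29 had a promoter in the RefSeq table, which spans 250 bases before to 50 after each start. The ISRE core was present in 8 of 17 type I members (47.1%) and in 6 of 12 interferon-gamma members (50%), against 3.99% of 27025 genes. The GAS letters were present in 3 of 17 type I members (17.6%) and 3 of 12 interferon-gamma members (25.0%), against 9.55% of genes, and 1 GAS match overlapped an ISRE match. The ISRE core was thus about as frequent in either class. A match describes the letters in this window and not a site in use.

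The labels and the tissue were checked first. Gnmt signal was 59473 and 52140 in the wild-type pools and between 11.7 and 329 in the 8 knockout arrays. The hepatocyte marker Alb ranged from 62848 to 96840. Each array had a trimmed mean of 500 as deposited, and the array medians ran from 77.4 to 102. The male mouse with HCC stood apart: the summed signal of 7 neutrophil markers was 15530.4 in its tumour and 15435 beside it, against 535 to 1710 in the other 8 arrays. Most of both sums was S100a8 (8788 and 10076) and S100a9 (4581 and 3417), and Elane and Mpo did not set both arrays apart. The 3′ to 5′ ratio of the Gapdh control was also highest there (1.295 and 1.33, against 0.854 to 1.09 elsewhere). That of Actb was not (3.00 and 3.62, against 2.46 to 3.46). The part of RNA quality in this mouse's values was not tested. The ratio of the spiked-in control BioC to BioB was 3.90 to 5.09 on the 11-week arrays and 1.45 to 1.84 on the aged arrays, so this ratio separates the same arrays as age does, and its part cannot be told apart from that of age. In these bulk samples a change in the number of expressing cells and a change in RNA per cell cannot be told apart either.

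Across the 10 arrays the type I members were highest in the female HCC for 8 of 19 genes and in the liver beside the male HCC for 7. They were lowest in the liver beside the nodules for 7. The median type I level, taken as log2 signal minus each gene's own mean, was 0.70 in the female HCC and -0.49 beside the nodules. The interferon-gamma members were highest 4 times each in the male HCC, beside the male HCC and in the female HCC, with median levels of 0.35, 0.32 and 0.14. Their lowest median was -0.40, in the female knockout pool.

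**Figure D1:**
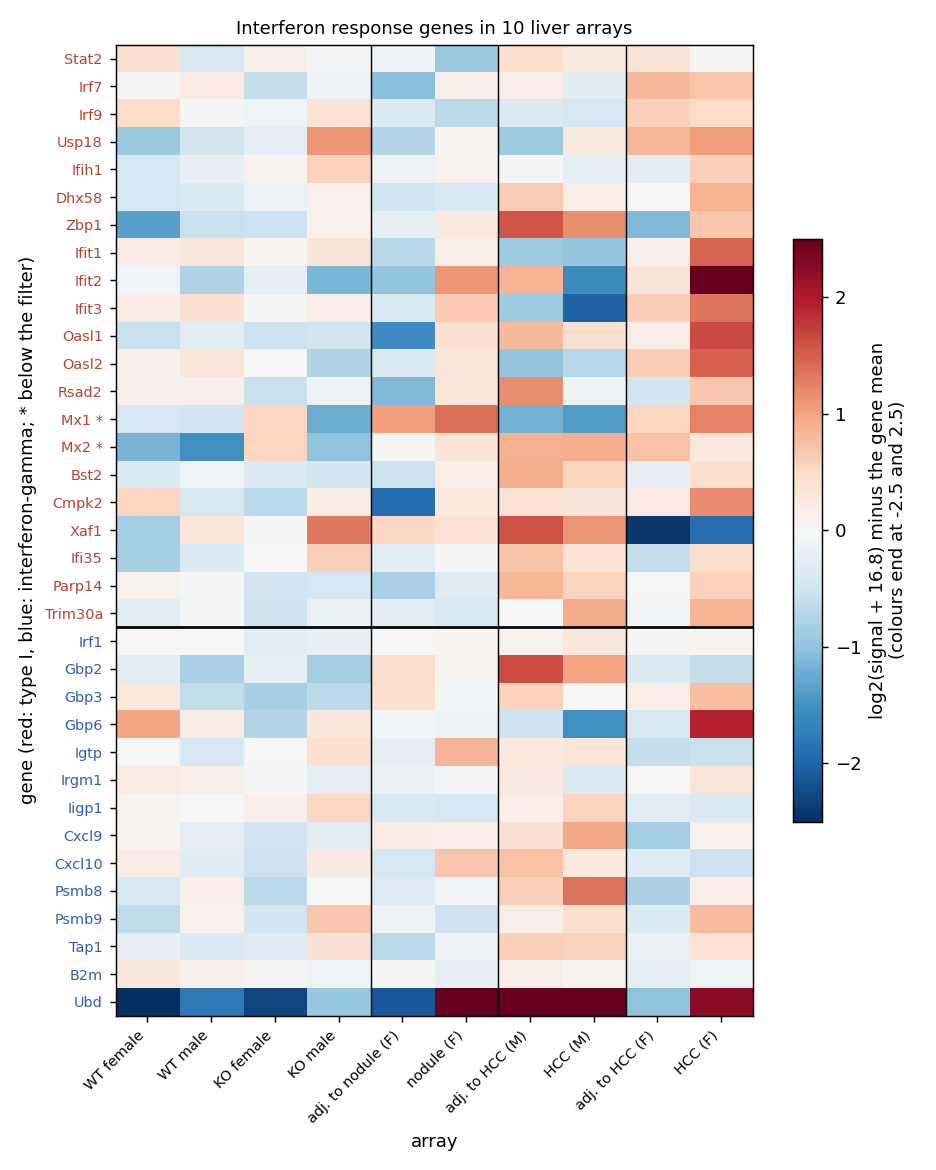
Level of each of the 35 measured members (vertical axis, type I above the line and interferon-gamma below) on each of the 10 arrays (horizontal axis), as log2(signal + 16.8) minus the gene's mean. Ubd and Ifit2 span the widest range, and no 11-week array is uniformly high or low.

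**Figure D2:**
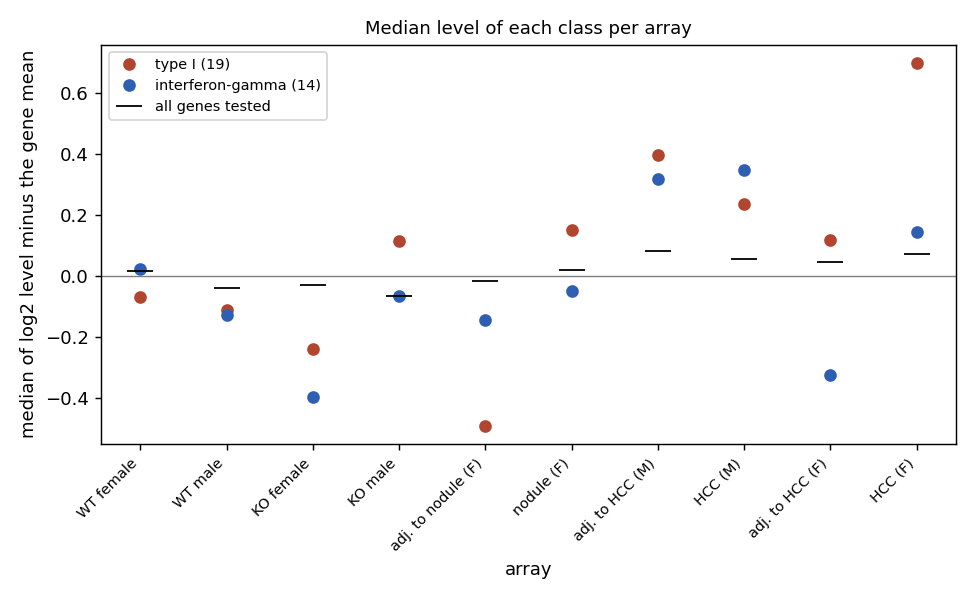
Median over 19 type I and 14 interferon-gamma members of the log2 level minus the gene mean, for each array, with the median over all 11021 genes tested as a bar. Type I members sit highest in the female HCC (0.70) and lowest beside the nodules (-0.49).

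At 11 weeks the medians of both classes in knockout liver were close to that of all genes, and a few type I genes were higher in both knockout pools without passing the test. Differences below are knockout minus wild-type on the scale log2(signal + 16.8), where 16.8 is the 20th percentile of all signals, from limma with sex as a term. They understate changes of weak genes. The median difference was -0.08 over type I members and -0.16 over interferon-gamma members, against -0.05 over all genes. No member passed an adjusted p of 0.05 in limma, whereas 1.76% of all genes did, and 4 of 33 members had an unadjusted p below 0.05 (Ifi35, Xaf1, Usp18 and Ifih1, all type I), where 19.6% of all genes did. The members' share was below that background.

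Usp18, the protease that removes Isg15 from proteins and dampens type I receptor signalling, had signals of 292 and 403 in the female and male wild-type pools and 481 and 1245 in the female and male knockout pools. Both knockout pools lay above both wild-type pools, and the male knockout pool was far above the rest. The difference was 1.14 ± 0.29 (SE, 2 pools per genotype), adjusted p = 0.104 in limma. After quantile normalization it was 1.13 with an adjusted p of 0.0355, where 4.83% of all genes passed.

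Ifi35, an interferon-induced leucine zipper protein, read 2706 (female) and 3783 (male) in wild-type and 4783 (female) and 7281 (male) in knockout liver. Here too the knockout pools did not overlap the wild-type pools, with a difference of 0.88 ± 0.21 and an adjusted p of 0.0858. How many of all genes separate in this way was not counted, so lack of overlap is only a description, here and in the other comparisons. Xaf1, a pro-apoptotic interferon target, read 273 (female) and 633 (male) in wild-type and 495 (female) and 1291 (male) in knockout liver. Its difference was 0.91 ± 0.24 (adjusted p = 0.107), although the female knockout pool was below the male wild-type pool. The female and male differences were 0.82 and 1.01, and the gene's other probe set gave 1.12 and 0.60.

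The RNA and DNA sensors had differences of the same sign. Zbp1, a sensor of Z-form nucleic acid, read 74.2 (female) and 143 (male) in wild-type and 145 (female) and 236 (male) in knockout liver. Its difference was 0.75 ± 0.39 (adjusted p = 0.346). Ifih1, the cytoplasmic RNA sensor MDA5, read 1179.8 (female) and 1387 (male) in wild-type and 1689 (female) and 2368 (male) in knockout liver, a difference of 0.64 ± 0.22 (adjusted p = 0.19). For Ifih1 the groups did not overlap, and for Zbp1 the female knockout pool was barely above the male wild-type pool. A second Zbp1 probe set gave -0.52 in females and 2.71 in males. The third sensor, Dhx58, differed by 0.38 (adjusted p = 0.518).

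The 8 antiviral effectors past the filter went the other way or stayed near 0, with differences from -0.60 to -0.05. Oasl2, an oligoadenylate synthetase-like protein, had the most negative value. Rsad2, the antiviral enzyme viperin, differed by -0.48 ± 0.26 (adjusted p = 0.352), with -0.70 in females and -0.26 in males. Its other probe sets gave more negative values: -1.77 in females and -0.38 in males for 1, and -1.775 and -0.655 for the other. The regulators Stat2, Irf7 and Irf9 ranged from -0.48 to 0.07, with Irf7, the factor that amplifies type I interferon production, lowest. Over the 19 type I members, 6 were higher in both sexes (31.6%) and 8 lower (42.1%), where 29.5% and 35.8% of all genes were. These shares are near the background.

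Among interferon-gamma members, 3 of 14 were higher in both sexes and 6 lower. Ubd, the ubiquitin-like modifier FAT10, read 2.8 and 106 in the female and male wild-type pools and 69.9 and 204 in the female and male knockout pools. The female wild-type value lies below the added constant, so the difference of 1.49 ± 0.69 (adjusted p = 0.288) rests on low signals. Gbp3, a guanylate-binding GTPase, read 270.3 (female) and 138 (male) in wild-type and 117 (female) and 134 (male) in knockout liver. It was lower in the female knockout pool and nearly level between the male pools, for a difference of -0.57 ± 0.42 (adjusted p = 0.497).

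Psmb9, an inducible subunit of the immunoproteasome, read 681 (female) and 1146 (male) in wild-type and 763 (female) and 1712 (male) in knockout liver. Its male pools exceeded its female pools in both genotypes, and the genotype difference was 0.37 ± 0.24 (adjusted p = 0.441). Irgm1, an immunity-related GTPase of autophagy, read 1173 (female) and 1107 (male) in wild-type and 984 (female) and 863 (male) in knockout liver. The knockout pools were lower in both sexes, by 0.30 ± 0.23 (adjusted p = 0.507). The remaining GTPases, chemokines and presentation genes differed by between -0.82 (Gbp6) and 0.41 (Igtp).

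The summed signals of endothelial and macrophage markers were lower in the knockout pools at this age. The 10 endothelial markers summed to 15977 and 12106 in the female and male wild-type pools and 6105 and 6771 in the female and male knockout pools, and Stab2 and Oit3, both lower, passed the test in limma (adjusted p = 0.0374 and 0.0461). They were 2 of the 9 endothelial markers past the filter, where 1.76% of all genes passed. The 15 macrophage markers summed to 41836 and 31485 in the female and male wild-type pools and 24248 and 22587 in the female and male knockout pools. Of these 15, 0 passed, and Marco, Cd68 and C1qa were slightly higher in the male knockout pool than in the male wild-type pool. The part of these cells in the interferon differences was not tested. Leaving out an array, in the model over all remaining arrays, moved the type I median between -0.30 (without the male knockout pool) and 0.23 (without the female knockout pool), and the interferon-gamma median to 0.22 without the female wild-type pool.

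**Figure D3:**
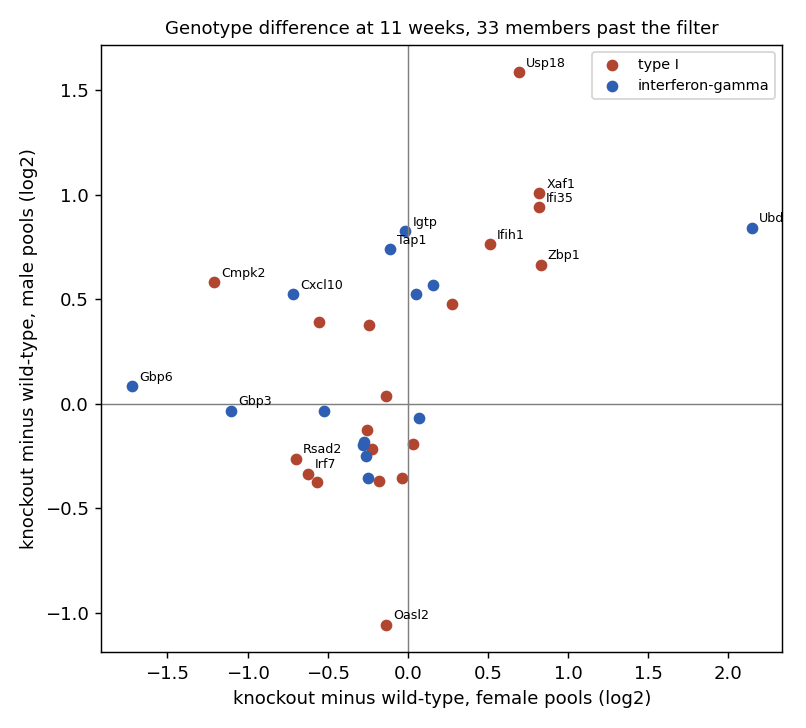
Knockout minus wild-type difference (log2) in the female pools (horizontal axis) and male pools (vertical axis) for the 33 members past the filter, red for type I and blue for interferon-gamma. Usp18, Xaf1, Ifi35, Ifih1 and Zbp1 lie in the upper right, higher in both sexes, and Cmpk2 and Cxcl10 lie in the upper left, lower in females and higher in males.

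Female and male pools at 11 weeks were compared across both genotypes, with genotype as a term. Type I members were lower in females in both genotypes for 11 of 19 genes and higher for 2, where 25.5% of all genes were lower and 31.6% higher, with a median female minus male difference of -0.17. The interferon-gamma median was -0.07, with 3 of 14 higher and 3 lower in both genotypes, and the median over all genes was 0.03. No member passed in limma, against 0.281% of all genes, and 6 of 33 had an unadjusted p below 0.05, where 9.19% of all genes did. The type I median was -0.17 in the wild-type pair and -0.34 in the knockout pair. In the model over all arrays, which takes the sex term from the aged mice too, it was 0.08, so its sign turned with that model. The interferon-gamma median was 0.15 in the wild-type pair and -0.41 in the knockout pair.

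Xaf1, with the values above, was lower in females by 1.26 on the log2 scale ± 0.24 (adjusted p = 0.161). Usp18 was lower in females in both genotypes, with a difference of -0.89 ± 0.29 (adjusted p = 0.438), and Zbp1 likewise at -0.73 ± 0.39 (adjusted p = 0.604). Ifit2, which binds viral RNA and restrains translation, ran opposite. It read 139.5 and 79.1 in the female and male wild-type pools and 121 and 57.5 in the female and male knockout pools, higher in females by 0.80 ± 0.50 (adjusted p = 0.651). Its female and male pools did not overlap.

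In the interferon-gamma class, Ubd differed by -2.0 ± 0.69 (adjusted p = 0.464) and Psmb9 by -0.94 ± 0.24 (adjusted p = 0.299), both lower in females. Psmb8, the catalytic immunoproteasome subunit LMP7, read 922 and 1373 in the female and male wild-type pools and 759.9 and 1208 in the female and male knockout pools. Both male pools lay above both female pools, for a difference of -0.61 ± 0.23 (adjusted p = 0.479). A second, weaker Psmb8 probe set gave -0.73 in wild-type and 1.44 in knockout liver, so the knockout sign was not seen there. Gbp2, a guanylate-binding GTPase, read 259.8 (female) and 175 (male) in wild-type and 274 (female) and 166 (male) in knockout liver. Its female pools were the higher ones, by 0.60 ± 0.31 (adjusted p = 0.6).

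HCC was compared with adjacent liver in 2 mice, with the mouse as a term. The median lesion minus adjacent difference of the type I members was -0.35 in the male and 0.86 in the female, for a combined 0.20. Of 19, 3 were higher in both tumours (15.8%) and 3 lower in both (15.8%), where 25.5% and 27.7% of all genes were. The interferon-gamma medians were -0.05 and 0.41, combined 0.12, and the median over all genes was -0.01. No member passed in limma, against 0.109% of all genes, and 3 of 33 members had an unadjusted p below 0.05, near the 7.67% of all genes.

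The members that were higher in both tumours were led by Trim30a, Psmb8 and Cxcl9. Trim30a, an interferon-induced E3 ligase, read 265 beside the nodules and 245 in them, 328 beside the male HCC and 634 in it, and 309 beside the female HCC and 605 in it. Both tumours were the highest arrays of all, and the difference was 0.92 ± 0.30 (SE, 2 mice; adjusted p = 0.444). By this probe set the nodules showed no such excess over their adjacent liver, whereas a second set gave 1.40 in the nodules, 0.42 in the male HCC and 0.75 in the female HCC.

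Psmb8 read 978 beside the nodules and 1141 in them, 1853 beside the male HCC and 3134 in it, and 697 beside the female HCC and 1377 in it. All 3 lesions exceeded their own adjacent liver. The HCC difference was 0.86 ± 0.27 (adjusted p = 0.42). Its partner Psmb9 read 982 beside the nodules and 746 in them, 1186 beside the male HCC and 1412 in it, and 838 beside the female HCC and 1828 in it, a difference of 0.68 ± 0.30 (adjusted p = 0.664), with the nodules below their adjacent liver.

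Cxcl9, the chemokine that draws Cxcr3-bearing T cells, read 631 beside the nodules and 622 in them, 725 beside the male HCC and 1087 in it, and 301 beside the female HCC and 602 in it. It was higher in both HCCs, by 0.77 ± 0.29 (adjusted p = 0.557), and level in the nodules. A second, weaker probe set for Cxcl9 gave -1.22 in the male HCC, 1.49 in the female HCC and 0.85 in the nodules, so the male rise was not seen there. Usp18 read 338 beside the nodules and 599.8 in them, 301 beside the male HCC and 675 in it, and 1024 beside the female HCC and 1199 in it. Its excess was larger in the male tumour (1.12) than in the female (0.22), with a combined 0.67 ± 0.32 (adjusted p = 0.691).

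Oasl2 read 127 beside the nodules and 209 in them, 76.2 beside the male HCC and 95.4 in it, and 265 beside the female HCC and 495 in it. It was higher in both tumours, by 0.57 ± 0.43 (adjusted p = 0.856). Irf7 read 398 beside the nodules and 937 in them, 944 beside the male HCC and 682 in it, and 1481 beside the female HCC and 1378 in it. It was lower in both tumours, by 0.28 ± 0.28 on the log2 scale (adjusted p = 0.901). Gbp2 read 430.1 beside the nodules and 335 in them, 1029 beside the male HCC and 656 in it, and 249 beside the female HCC and 204 in it, lower in both tumours and in the nodules, with an HCC difference of -0.45 ± 0.31 (adjusted p = 0.828). Both samples of the male mouse were far above the others for Gbp2.

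**Figure D4:**
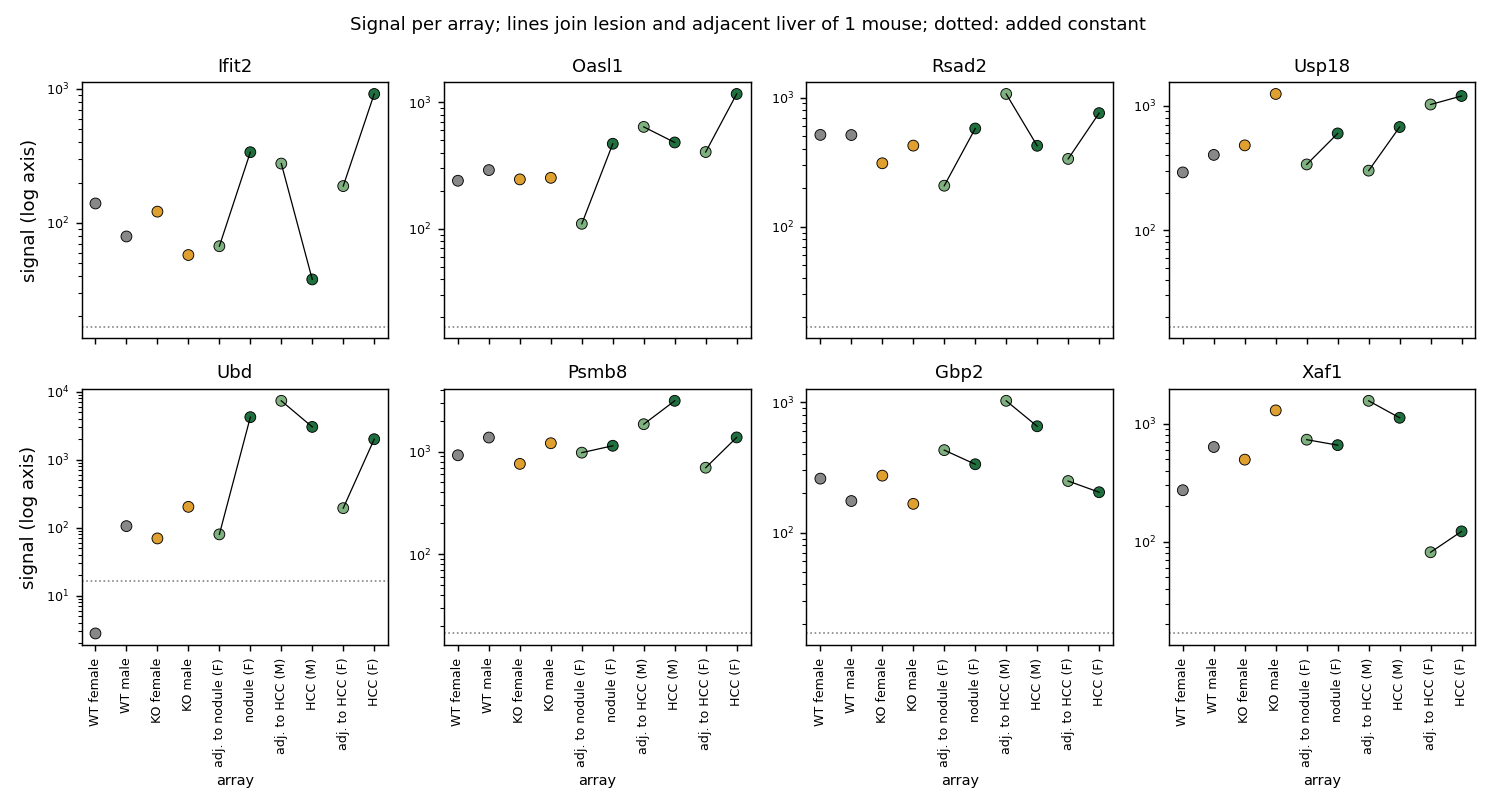
Signal (log axis) of 8 members on each array, with lines joining lesion and adjacent liver of a mouse and a dotted line at the added constant of 16.8. Ifit2, Oasl1, Rsad2 and Ubd climb from adjacent liver to lesion in both female mice and descend in the male mouse, while Usp18 and Psmb8 climb in all 3.

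All 3 lesions were then set against their adjacent livers, a comparison that includes the HCC pairs above. The median type I difference was 0.32 and the interferon-gamma median 0.24, against 0.00 over all genes. By lesion, the type I medians were 0.65 in the nodules, 0.86 in the female HCC and -0.35 in the male HCC. The interferon-gamma medians were 0.01, 0.41 and -0.05. No member passed in limma, against 0.00907% of all genes, and 2 of 33 (Psmb8 and Usp18) had an unadjusted p below 0.05, below the 9.99% of all genes. The type I median was 0.05 without the female HCC pair and 0.62 without the male pair.

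Higher in all 3 mice were 5 of the 33 members (15.2%), a share near the 16% of all genes: Usp18 and Oasl2 of type I, and Psmb8, Igtp and Irf1 of the interferon-gamma class. Usp18 differed by 0.71 ± 0.24 (SE, 3 mice; adjusted p = 0.407), Oasl2 by 0.59 ± 0.30 (adjusted p = 0.572) and Psmb8 by 0.65 ± 0.21 (adjusted p = 0.4). Igtp, an immunity-related GTPase, read 1343 beside the nodules and 2850.0 in them, 1881 beside the male HCC and 1932 in it, and 1038 beside the female HCC and 1056 in it. It was higher in the nodules by 1.08 and nearly level in both HCCs (0.04 and 0.02), and the combined difference was 0.38 ± 0.26 (adjusted p = 0.672). Irf1, the early transcription factor of the interferon-gamma response, read 1187 beside the nodules and 1218 in them, 1256 beside the male HCC and 1428 in it, and 1203 beside the female HCC and 1209.9 in it, nearly level throughout at 0.08 ± 0.18 (adjusted p = 0.92).

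Lower in all 3 mice were Stat2, Irf9 and Gbp2, where 16.4% of all genes were lower. Stat2, a subunit of the ISRE-binding complex, read 426 beside the nodules and 238 in them, 621 beside the male HCC and 563 in it, and 585 beside the female HCC and 475 in it. The difference was most negative in the nodules, and the combined difference was -0.41 ± 0.23 (adjusted p = 0.6). Irf9, the DNA-binding subunit of that complex, read 422 beside the nodules and 339.5 in them, 419.5 beside the male HCC and 403 in it, and 827 beside the female HCC and 764 in it, a difference of -0.16 ± 0.20 (adjusted p = 0.83). The liver beside the female HCC was the highest array for Irf9. Gbp2 differed by -0.42 ± 0.21 (adjusted p = 0.572).

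A split by mouse was seen in most type I members, with 1 mouse per lesion. It was weaker in the 20 other type I targets past the filter, described further below. Their median differences were 0.16 in the nodules, 0.49 in the female HCC and -0.05 in the male HCC. Higher in both female lesions and lower in the male HCC than in adjacent liver were 12 of 19 type I members (63.2%) and 3 of 14 interferon-gamma members (21.4%), against 15.3% of all genes. The count for type I was between 10 and 12 with another added constant, with quantile normalization, with 75th-percentile centring and with the mean of all probe sets. The reverse pattern was seen in 0 type I members and 1 interferon-gamma member, against 11.4% of all genes. The count rests on the probe set used for each gene. Of the 12 type I members with the pattern, 6 had other probe sets, and 3 of those 9 sets showed it (1 each for Rsad2, Cmpk2 and Zbp1), whereas no other set of Dhx58, Ifi35 or Parp14 did. The following genes were chosen for this pattern after their values were seen, and their differences are given as a description.

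Ifit2 read 66.9 beside the nodules and 337 in them, 277 beside the male HCC and 37.8 in it, and 188 beside the female HCC and 916 in it. Its lowest array was the male HCC and its highest the female HCC. The differences were 2.08 in the nodules, 2.19 in the female HCC and -2.43 in the male HCC. Rsad2 read 208 beside the nodules and 576 in them, 1067 beside the male HCC and 423 in it, and 335 beside the female HCC and 758 in it. Here the liver beside the male HCC was the highest of all arrays, and the differences were 1.40, 1.14 and -1.30 in the same order. A second Rsad2 set gave 1.46, 0.87 and -0.88, and another gave 1.98, -0.31 and -0.01, without the rise in the female HCC or the fall in the male.

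Ifit3, a partner of Ifit1 and Ifit2, read 261 beside the nodules and 561 in them, 183 beside the male HCC and 74.1 in it, and 546 beside the female HCC and 910.4 in it. The differences were 1.06, 0.72 and -1.14. Oasl1, which represses Irf7 translation, read 109 beside the nodules and 471 in them, 639.9 beside the male HCC and 482 in it, and 405 beside the female HCC and 1166 in it, with differences of 1.95, 1.49 and -0.40. Cmpk2, a mitochondrial nucleotide kinase next to Rsad2, read 28.3 beside the nodules and 188 in them, 202 beside the male HCC and 197 in it, and 182 beside the female HCC and 372 in it. It differed by 2.18, 0.97 and -0.03, so the male pair was level.

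Ifit1 differed by 0.84, 1.34 and -0.09, Bst2 (tetherin, which holds budding virus at the cell surface) by 0.70, 0.59 and -0.35, and Zbp1 by 0.51, 1.76 and -0.40. The other type I members with the pattern were Ifih1, Dhx58, Ifi35 and Parp14, a mono-ADP-ribosyltransferase. In the interferon-gamma class the pattern was carried by Ubd, Irgm1 and Tap1, the peptide transporter subunit, whose male difference was only -0.02. Iigp1 was the reversed member, at -0.06 in the nodules, -0.11 in the female HCC and 0.38 in the male HCC. Its other probe set gave 0.19, -0.15 and 0.16 in the same order, without the reversal.

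Ubd had the widest swing of any member. It read 80.2 beside the nodules and 4245 in them, 7382 beside the male HCC and 3052 in it, and 195 beside the female HCC and 2012 in it. Signals were at least 2012 in all 3 lesions and beside the male HCC, and at or below 195 beside the nodules and the female HCC. The differences were 5.46 in the nodules, 3.26 in the female HCC and -1.27 in the male HCC, combined 2.48 ± 1.11 (adjusted p = 0.535). On the other arrays Ubd read 2.8 to 204, too low on average to pass the filter. It thus entered the tests only through the arrays in which it was high, and its p-values are drawn from those same arrays.

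In a model with a lesion-by-sex term, added after the data were seen, no member passed, while 0.0272% of all genes did, and 7 of 33 had an unadjusted p below 0.05, against 8% of all genes. The male arm is 1 mouse, so this model's spread comes from the 2 female pairs alone, and sex and individual cannot be told apart. The male minus female lesion effect was -4.56 for Ifit2, -5.63 for Ubd and -2.57 for Rsad2, given as a description. Without the male pair, which leaves 2 mice, limma called Ubd (4.36 ± 0.45, adjusted p = 0.00439), Ifit2 (2.13 ± 0.33, adjusted p = 0.0167) and Oasl1 (1.72 ± 0.29, adjusted p = 0.0257), all higher in the lesions, where 1.5% of all genes passed. The pair left out is the one in which these genes were lower in the lesion. They had also been picked for rising in both female lesions, so these p-values repeat that choice and add no support.

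Changes of at least 2-fold between lesion and adjacent liver were counted for each lesion. In the nodules 6 type I and 3 interferon-gamma members were at least 2-fold higher and 0 lower, where 7.84% of all genes were higher and 3.87% lower. In the female HCC the counts were again 6 and 3 higher and 0 lower, against 6.31% and 4.11% of all genes. In the male HCC 1 type I member (Usp18) was higher, and 3 type I (Ifit2, Ifit3 and Rsad2) and 2 interferon-gamma members (Ubd and Gbp6) were lower, against 4.54% and 4.59% of all genes. These are single arrays, so the folds have no replicate check.

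**Figure D5:**
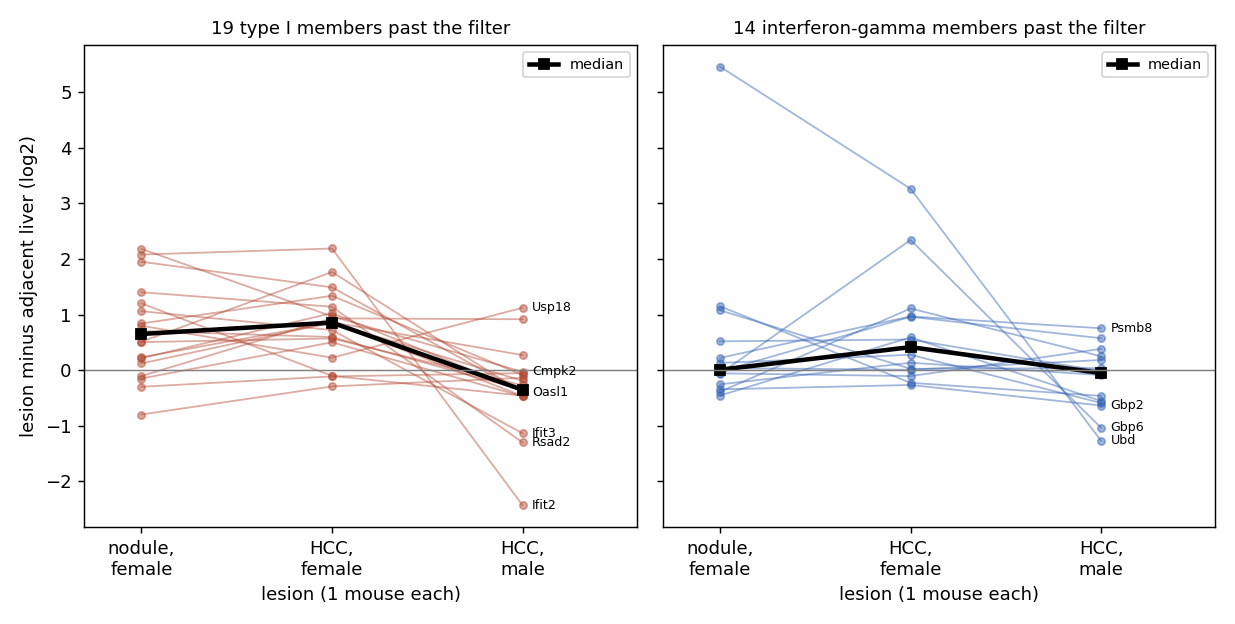
Lesion minus adjacent liver (log2, vertical axis) in each of the 3 mice (horizontal axis) for type I members (left) and interferon-gamma members (right), where each line is a gene and the black line the median. The type I median is 0.65 and 0.86 in the female lesions and -0.35 in the male HCC, and the interferon-gamma median is 0.01, 0.41 and -0.05.

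Sums of some immune cell markers had the signs of this split, and others did not. The summed signal of 6 dendritic markers, of which 2 passed the filter, was 380.0 beside the nodules and 682 in them, 932 beside the male HCC and 648 in it, and 536 beside the female HCC and 759 in it. That of 13 T and natural killer cell markers was 1109.9 beside the nodules and 1389 in them, 1165 beside the male HCC and 875 in it, and 647 beside the female HCC and 785 in it, of which only 3 passed the filter, with Cd4 between 12.4 and 28.3 on all arrays. Both sums were higher in the female lesions and lower in the male HCC than in adjacent liver. Of the 3 T and natural killer cell markers past the filter, Ccl5 alone had these signs: Cd8a was higher in the male HCC (164) than beside it (138), and Prf1 was lower in the nodules (93.5) than beside them (172). The 15 macrophage markers summed to 22731 beside the nodules and 43417 in them, 41648 beside the male HCC and 46734 in it, and 39448 beside the female HCC and 40316 in it. Their median difference was 0.66 in the nodules, 0.21 in the male HCC and -0.07 in the female HCC. The sum of 6 B and plasma cell markers was lower in all 3 lesions. It went from 1914 to 925 in the nodules, 2204 to 2069 in the male HCC and 1345 to 1088 in the female HCC. That of 7 neutrophil markers was lower in the nodules (924 to 880) and female HCC (1710 to 1436), and level in the male HCC. That of 8 hepatocyte markers was lower in the nodules (408812 to 300731) and female HCC (350242 to 296723), and higher in the male HCC (447921 to 474902). The part of these cells in the interferon differences was not tested.

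Adjacent liver of the 3 aged knockout mice was compared with the 11-week knockout pools, with sex as a term; these pools also serve in the genotype comparison. The median difference was 0.16 for type I members (-0.03 after quantile normalization) and 0.24 for interferon-gamma members, against 0.08 over all genes. No member passed in limma, 0% of all genes did, and 2 of 33 members (Ubd and Gbp3) had an unadjusted p below 0.05, below the 12.4% of all genes. The type I median was -0.08 without the liver beside the male HCC or without the male young pool, and 0.31 without the liver beside the nodules, so its sign rests on the male arrays. In the type I class 1 member was higher than its own-sex young pool in all 3 mice and 1 lower, and in the interferon-gamma class 4 were higher and 2 lower, where 26.4% and 17.3% of all genes were.

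Ubd read 80.2, 7382 and 195 in the liver beside the nodules, the male HCC and the female HCC, against 69.9 (female) and 204 (male) in the young knockout pools. The male mouse set the size of the difference, which was 2.59 ± 0.92 (SE, 3 aged and 2 young arrays; adjusted p = 0.39). Without the liver beside the nodules it was 3.18 with an adjusted p of 0.0126, where 1.39% of all genes passed. The liver beside the male HCC is among the arrays that took Ubd past the filter, so this p-value adds no support. Without the female young pool the difference was 5.07 (adjusted p = 0.0179, with 3.32% of genes called), but this sets 1 aged male array against 1 young male pool, with a spread taken from the aged female arrays alone.

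Gbp3 read 296, 337 and 249.5 in the same order against 117 (female) and 134 (male) when young. Every aged value was above both young values, a difference of 1.16 ± 0.32 (adjusted p = 0.388). Irf1 read 1187, 1256 and 1203 against 957 (female) and 1009 (male), also without overlap, at 0.31 ± 0.22 (adjusted p = 0.555). Iigp1, the abundant GTPase that attacks parasite vacuoles, read 14040.3, 20733 and 15324 against 20042 (female) and 26398 (male). It was lower in each mouse than in the young pool of its sex, by 0.41 ± 0.20 on the log2 scale (adjusted p = 0.462).

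In the type I class Ifih1 read 1437, 1532 and 1329.7 against 1689 (female) and 2368 (male). All 3 aged livers were below both young pools, with a difference of -0.43 ± 0.22 (adjusted p = 0.467). Trim30a read 265, 328 and 309 against 224 (female) and 287 (male), a difference of 0.27 ± 0.29 (adjusted p = 0.704). Its second probe set gave -0.19 beside the nodules, 1.12 beside the male HCC and 0.64 beside the female HCC. The other type I members differed in sign between mice. Xaf1, for example, was -2.38 in the 14-month female by the probe set used, and 0.84 by its other probe set, which in turn was lowest in the male mouse.

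The rest of the pathway was read from further gene lists. Of 5 interferon genes with a probe set only Ifna2 passed the filter. Ifng ranged from 1.4 to 57.9 and Ifnb1 from 4.2 to 85.4, both below the filter. Of 13 receptor and signalling genes past the filter, 0 were called in any of the 5 comparisons, where at most 1.76% of all genes were. Ifnar1 stayed between 529.6 and 771, and Ifngr1, a chain of the interferon-gamma receptor, was highest in the male mouse (1399 beside the HCC and 1215 in it). Socs3, a feedback inhibitor of cytokine signalling, was 5136 and 5074 in that mouse and at most 946 elsewhere.

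Of 20 other type I targets and 11 other interferon-gamma targets past the filter, 0 were called in any comparison, where at most 1.76% of all genes were. Among the 20 other type I targets, Oas2, Oas1a, Rtp4, Ddx58, Lgals3bp and Epsti1 were higher in all 3 lesions. That is a larger share than the 16% of all genes. Adar, Ifi27, Isg20, Samd9l, Parp12 and Uba7 were higher in both female lesions and lower in the male HCC. Their share of the 20 was likewise larger than the 15.3% of all genes, and neither share was tested. Oas2 and Oas1a make the 2-5A messenger that activates RNase L. Oas2 read 50.5 beside the nodules and 214 in them, 120.3 beside the male HCC and 236 in it, and 153 beside the female HCC and 478 in it, a difference of 1.40 ± 0.32 (adjusted p = 0.283). Oas1a read 332 beside the nodules and 599 in them, 753 beside the male HCC and 1308 in it, and 621 beside the female HCC and 1187 in it, a difference of 0.84 ± 0.18 (adjusted p = 0.27). Icam1, an adhesion molecule induced by interferon-gamma, was 3809.5 and 4235 in the male mouse, and its lesion difference was 1.30 ± 0.39 (adjusted p = 0.381).

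Mx1 and Mx2, dynamin-like antiviral GTPases, stayed below the filter, with signals from 13.0 to 187 and from 13.0 to 146. The probe sets of a gene did not always tell the same story. Besides Xaf1, the second probe set of Stat2 was higher in the nodules and the female HCC than in adjacent liver, at 0.10 and 0.36, where the set used gave -0.80 and -0.29. A second set for Zbp1 read 310.0 beside the male HCC and 18.7 in it, and followed the same signs as the set used in all 3 lesions.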

How the data were processed

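Gene expression was measured in mouse liver on 10 Affymetrix arrays with 45101 probe sets, labelled from 5 ug total RNA per the labels. The deposited values are signal intensities on a linear scale that the authors made with GCOS per the submitters' processing notes (version and settings are not given in the sources used here). Each array's trimmed mean (2% off either end) is 500. Of the probe sets, 34945 carry 1 gene symbol, 932 several and 9160 none, and 34741 were matched to current genes by their Entrez number. The probe set with the highest mean per gene was used, log2(signal + 16.8) was taken, and genes with a mean above that of a signal of 91.0, the median of all values, were tested with limma 3.58.1 in R 4.3.3 (eBayes with an intensity trend), with Benjamini-Hochberg adjustment over all 11021 genes and a threshold of 0.05. The code was tested on simulated data. The young comparisons have 2 pools per group and 1 residual degree of freedom, and the paired lesion comparisons 1 or 2. Pairing by mouse is inferred from the sex and age in the labels. P-values measure only the spread between these samples, with precision limited by how few arrays there are. Probe sets cannot separate near-identical family members (Gbp, Ifit and Oas genes), so their values may include cross-hybridization.

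The members and the other lists were chosen with earlier results of these data known. Named with array values were, per class and comparison, up to 4 members past the filter with the largest difference that ran the same way in every pair. Alternatives were another added constant, quantile normalization, 75th-percentile centring, other filters, the mean of all probe sets, no intensity trend, no covariate and leaving out each array or pair. A lesion-by-sex term, a model over all 10 arrays and a robust variance prior were added after seeing the data. Promoters are from RefSeq, and ISRE and GAS letters were searched on both strands.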

Additional observations from a re-analysis of the deposited data

Results flagged for a closer look

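Cmpk2 and Cxcl10 differed between knockout and wild-type liver in opposite directions in the female and male pools at 11 weeks, by at least 0.5 on the log2 scale in each sex. For Cmpk2, the nucleotide kinase, knockout minus wild-type was -1.21 in females and 0.58 in males, so the female difference minus the male difference was -1.79. A second, weaker Cmpk2 probe set gave -0.12 in females and -1.48 in males, lower in both sexes, so the opposite signs were seen by the set used alone. For Cxcl10, a chemokine that draws T cells, the values were -0.72 and 0.53, a gap of -1.24. With 1 pool per sex and genotype the difference between the sexes was not tested.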

How the results depend on the processing

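With quantile normalization 1 member (Usp18) was called between genotypes. In the model over all arrays, which was chosen after seeing the data, the type I median for females minus males was 0.08. Leaving out single arrays or pairs gave 0 to 3 members called for all lesions (Ifit2, Oasl1 and Ubd without the male pair) and 0 to 1 for aged adjacent liver (Ubd). A robust variance prior in limma, also chosen after seeing the data, called 0 members in each of the 5 comparisons, and 10 genes in place of 1 for all lesions. Leaving out arrays gave type I medians from -0.30 to 0.23 and interferon-gamma medians from -0.35 to 0.22 between genotypes. Between the sexes it gave type I medians from -0.04 to 0.14 and interferon-gamma medians from -0.58 to -0.36, but these fits also changed the model, and the model over all arrays with none left out already gave 0.08 and -0.42, against -0.17 and -0.07. In aged adjacent liver leaving out arrays gave type I medians from -0.08 to 0.31 and interferon-gamma medians from 0.15 to 0.39. For all lesions the type I medians ran from 0.05 to 0.62. Where leaving out an array left no residual degree of freedom, the model over all remaining arrays was used, which assumes that a lone sample varies like the other groups. The causes of the other moves were not tested. In the other 69 fits 0 members were called, and 114 class medians moved by less than 1 SD between pairs, those of type I for aged liver and all lesions included. Members with signals near the added constant, such as Ubd in the female wild-type pool, are limited by signal over background.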
